A study of Mus musculus with 12 samples.

Results

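*Penk* and other genes that encode secreted neuropeptides were followed in RNA-seq of primary astrocytes, the star-shaped support cells of the brain grown out of dissociated tissue. The genes were selected on measured values, since a large difference in *Penk* was already known in these libraries, so their own differences between genotypes are given as a description without a test. Of 9 genes named, *Penk*, *Npy*, *Adm*, *Vgf*, *Scg2* and *Chgb*, 6 in all, were found by symbol among the 18903 genes of the count table. *Sst*, *Cck* and *Nts* were not analysed here. All 6 passed the filter on low counts.

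The cells came from mouse brains taken at postnatal day 1, 6 and 8 (P1, P6 and P8), and each genotype had 2 libraries a day, 12 in all. Both genotypes carried hGFAP-Cre, a recombinase driven by the human promoter of the astrocyte gene *GFAP*, which is also active in neural stem cells before birth. In *Rack7*-cKO mice both copies of *Rack7* were floxed and lost exons 3 and 4, while in WT mice they were intact. According to the methods, the brains were freed of their meninges, cultures were shaken to detach microglia and oligodendrocytes, and the adherent cells were grown to confluence before RNA was taken. The labels call the 2 libraries of a group biological replicates without tying them to animals.

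Neuropeptides are made as longer precursors that enter the secretory pathway. In dense-core granules, proteases cut the precursor at pairs of basic residues, a carboxypeptidase trims the ends, and the peptides are released on stimulation to act on G-protein-coupled receptors until cell-surface peptidases break them down. Neurons and endocrine cells are the best known sources, but cultured astrocytes and fibroblasts have also long been known to make enkephalin precursor mRNA. *Penk* encodes proenkephalin, *Npy* neuropeptide Y and *Adm* adrenomedullin, a vasodilator peptide. *Vgf*, *Scg2* and *Chgb* encode members of the granin family, acidic proteins that help to form granules and are themselves precursors of peptides.

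The libraries held 54413504 to 89183250 counted reads. Levels are given as CPM, the counts of a gene scaled to a common library total after correction by TMM factors that lay between 0.943 and 1.07, and differences as the log2 fold change fitted by edgeR, cKO minus WT, with its standard error (SE). *Zmynd8*, the gene that encodes RACK7, had 136 CPM in both P1 libraries of the label WT but 213 and 216 in those of the label cKO, and was also higher under the label cKO at P6 (log2 fold change 1.04, edgeR adjusted p = 4.97e-07) and P8 (0.70, edgeR adjusted p = 3.78e-06). Reads counted over a whole gene that lost 2 exons do not test the labels, and groups are therefore named as labelled. All 10 astrocyte markers examined were detected. In bulk RNA, fewer cells of a type and less RNA per cell cannot be told apart.

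*Penk* is at chromosome 4, 4133531 to 4138819, on the minus strand (GRCm38, GENCODE vM21). Its translated precursor has 268 residues and carries 7 enkephalin segments. Of these, 6 have the sequence of Met-enkephalin and 1 that of Leu-enkephalin, each of them preceded by a pair of basic residues. The residues after a segment were not checked, so a segment may belong to a longer peptide. The stretch of the coding sequence with the densest run of segments, chr4:4134067-4134354 in exon 2 of 2 of the transcript used, is shown on the minus strand to show what the RNA encodes, with 4 Met-enkephalin segments in capitals and the basic pair before each of them in lower case.
Penk coding stretch: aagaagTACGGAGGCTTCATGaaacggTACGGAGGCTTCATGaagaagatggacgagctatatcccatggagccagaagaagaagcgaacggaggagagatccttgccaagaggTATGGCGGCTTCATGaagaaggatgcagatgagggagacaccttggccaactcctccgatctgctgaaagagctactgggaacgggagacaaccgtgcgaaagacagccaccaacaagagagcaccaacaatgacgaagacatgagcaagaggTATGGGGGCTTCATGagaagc

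The level of *Penk* went opposite ways in the course of the genotypes. Under the label WT it was 0.469 and 0.614 CPM at P1, reached 2.34 and 2.72 CPM at P6 and stood at 289 and 318 CPM by P8. Under the label cKO it started at 4.51 and 5.55 CPM at P1, and then had 0.487 and 0.280 CPM at P6 and 0.396 and 0.487 CPM at P8. The P8 libraries labelled WT thus stood above all others, and at no time point did the genotypes overlap, with cKO above WT at P1 and below it at P6 and P8. In counts, the P8 libraries held 17191 and 22926 reads of *Penk* under WT and 29 and 41 under cKO, so that the lower levels rested on few reads.

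At P1 the mean was 0.542 ± 0.103 CPM (SD, n = 2) under WT and 5.03 ± 0.736 (n = 2) under cKO, a ratio of 9.28 and a log2 fold change of 3.19 (SE 0.21). At P6 it was 2.53 ± 0.269 against 0.384 ± 0.147, with WT 6.58-fold higher (log2 fold change -2.71, SE 0.23). At P8 it was 303 ± 20.1 against 0.441 ± 0.0649, with WT 687-fold higher (log2 fold change -9.41, SE 0.24). In order of the mean, P8 WT came first, followed by P1 cKO, P6 WT, P1 WT, P8 cKO and P6 cKO. The last 3 groups overlapped with their neighbours and could not be ordered. Within WT the fitted log2 step was 2.20 (SE 0.21) from P1 to P6 and 6.91 (SE 0.21) from P6 to P8, whereas within cKO it was -3.70 (SE 0.22) and then 0.21 (SE 0.27).

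**Figure D1:**
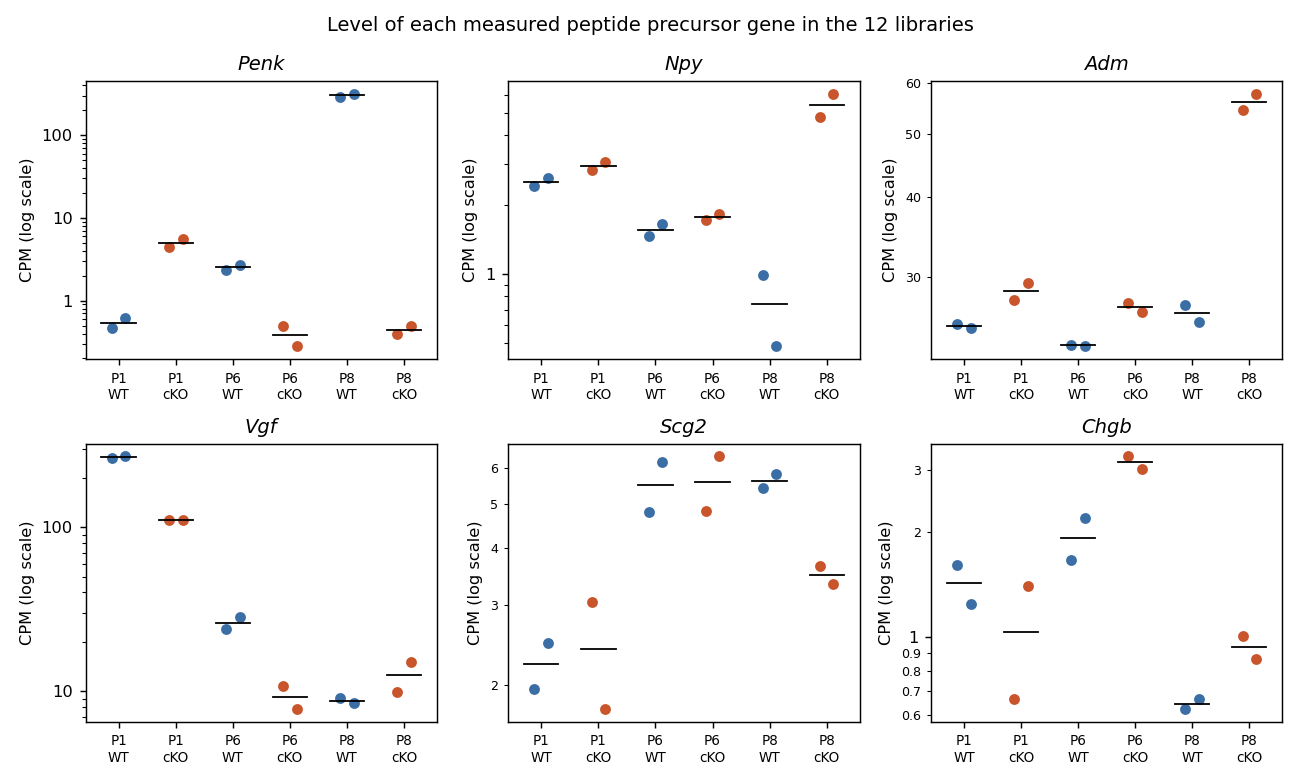
Level of each gene in CPM (log axes, each with its own range) by group, WT in blue and cKO in orange; points are single libraries and lines are means of 2. *Penk* at P8 WT (289 and 318 CPM) stands far above every other library, whereas *Npy* and *Adm* are highest at P8 cKO and *Vgf* at P1 WT.

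The span of *Penk* overlaps A830012C17Rik on the opposite strand, which was not analysed here. No source used here states a strand setting for the counting, so reads of the 2 genes cannot be told apart.

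Summed markers of some other cell types shared the order of genotypes with *Penk* within each time point, though not its course within cKO. Meningeal fibroblasts are the matrix-producing cells of the brain's coverings, and 9 of 10 of their listed markers were analysed. The 9 summed to 380 to 397 CPM at P1 WT and 2109 to 2152 at P1 cKO, to 5582 to 5634 at P6 WT and 2510 to 2684 at P6 cKO, and to 20986 to 21169 at P8 WT and 7140 to 7344 at P8 cKO. The genotypes thus stood in the same order as for *Penk* at each time point. Most of the fibroblast sum in every group was the collagen chains *Col1a1* and *Col1a2*, with means of 241 and 74.5 CPM at P1 WT and 9721 and 9237 at P8 WT. At P1, 8 of the 9 rose past the cut-off (edgeR adjusted p below 0.05 and at least 1.5-fold) and 0 fell, at P6 0 rose and 8 fell, and at P8 0 rose and 6 fell. Of all genes tested, 4.01% rose and 0.892% fell at P1, with 7.16% and 6.38% for P6 and 11.2% and 8.37% for P8.

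Single fibroblast markers were set beside *Penk*, a comparison chosen after the values were seen. At P1 all 9 were higher under cKO. The largest ratios were 11.4-fold for *Col1a2* and 10.7-fold and 10.1-fold for *Lum* and *Dcn*, proteoglycans of the matrix, beside 9.28-fold for *Penk*. The smallest were 1.52-fold for *Pdgfrb* and 1.58-fold for *Ptgds*. At P6 *Dcn* had the largest ratio, 68.1-fold lower under cKO, and *Lum* had no count there. *Ptgds* alone was higher under cKO at P6, by 1.63-fold. At P8 the largest ratios among the 9 markers were 34.2-fold for *Lum* and 32.0-fold for *Dcn*, lower under cKO, beside 687-fold for *Penk*. *Aldh1a2* and *Ptgds* were higher under cKO at P8, by 1.45-fold and 1.11-fold. Per 1000 CPM of summed fibroblast markers, *Penk* had 1.24 to 1.55 CPM at P1 WT and 2.09 to 2.63 at P1 cKO, 0.418 to 0.482 at P6 WT and 0.112 to 0.182 at P6 cKO, and 13.7 to 15.1 at P8 WT and 0.0554 to 0.0664 at P8 cKO. These ratios describe the same *Penk* values against a sum that was mostly *Col1a1* and *Col1a2* and in which single markers differed unequally. The part of fibroblast content in the level of *Penk* was not tested.

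The astrocyte markers summed to 2497 to 2546 CPM at P1 WT and 2421 to 2441 at P1 cKO, 1909 to 2108 and 1698 to 1839 at P6, and 1910 to 2302 and 971 to 975 at P8, where 5 of 10 fell. Those of microglia, the brain's macrophages, summed to 3080 to 3199 and 2665 to 2698 at P1, 2106 to 2163 and 2522 to 2554 at P6, and 2252 to 2303 and 4476 to 4483 at P8. At P8, 5 microglia markers rose and 1 fell among 9 identifiers, *Itgam* being carried by 2. Neuron markers, of which 3 of 8 were analysed, summed to 65.2 to 68.5 CPM at P8 WT and 176 to 178 at P8 cKO. Most of the neuron sum was *Stmn2*, with means of 49.8 and 152 CPM. Interneuron markers, of which 4 of 9 were analysed, summed to 22.8 to 25.8 CPM at P8 WT and 11.7 to 11.8 at P8 cKO. Most of the interneuron sum was *Lhx6*, with means of 17.5 and 8.08 CPM, while *Dlx2* had 1.47 and 2.51. Past the cut-off, 1 interneuron marker rose and 1 fell at P8. *Gad1*, *Gad2* and *Slc32a1*, which define inhibitory neurons, were not analysed here.

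Summed markers of endothelium and of the oligodendrocyte lineage also stood in the same order of genotypes as *Penk* at each time point. Single markers did not all follow the sums. The endothelial marker *Flt1* had a mean of 36.9 CPM at P6 WT and 53.2 at P6 cKO. Past the cut-off at P8, 1 endothelial marker rose and 1 fell. Of the oligodendrocyte lineage 1 rose and 3 fell, beside 11.2% and 8.37% of all genes tested. The 3 of 6 endothelial markers analysed summed to 23.7 to 25.3 CPM at P1 WT and 47.1 to 49.3 at P1 cKO, to 103 to 106 and 58.4 to 62.2 at P6, and to 135 to 148 and 31.6 to 34.6 at P8. The 8 of 9 oligodendrocyte lineage markers analysed summed to 108 to 119 CPM at P1 WT and 138 to 143 at P1 cKO, to 191 to 193 and 139 to 150 at P6, and to 168 to 169 and 129 to 130 at P8. At P8 the sums were, for mural cells, 1765 to 1781 CPM under WT and 2131 to 2154 under cKO, and for ependymal and choroid plexus cells 31.0 to 31.5 and 46.2 to 48.4. Most of the mural sum was *Acta2*, with means of 1588 and 2046 CPM, and past the cut-off 1 mural marker rose and 2 fell. The part of these cell types in the levels of the peptide genes was not tested.

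**Figure D2:**
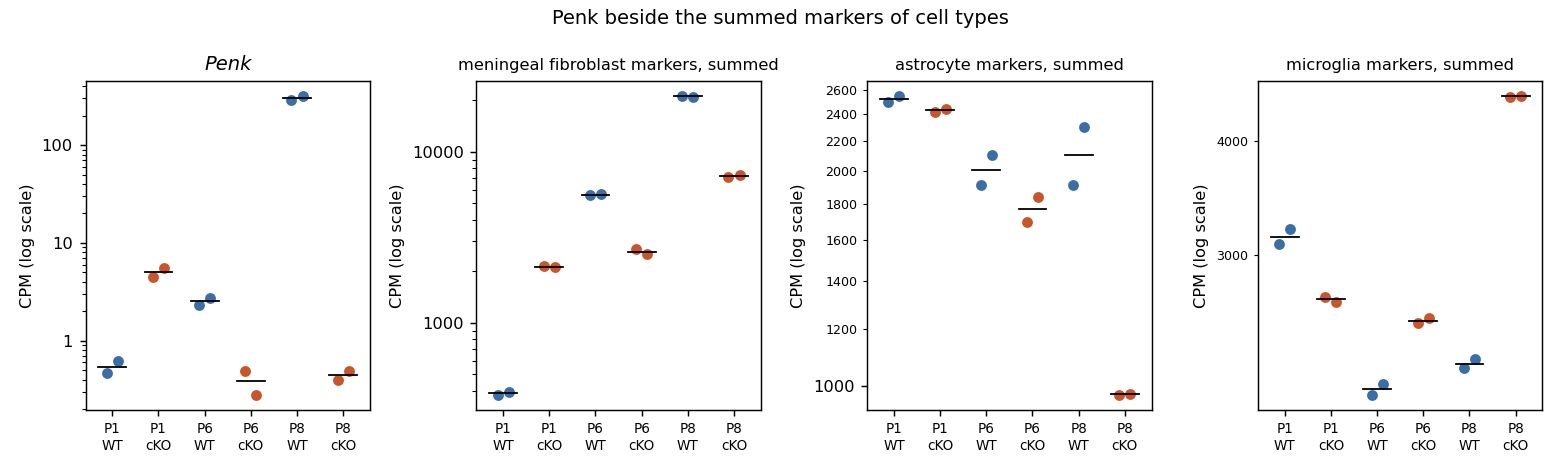
*Penk* and the summed markers of meningeal fibroblasts, astrocytes and microglia in CPM (log axes, each with its own range), by group; points are single libraries and lines are means of 2. The fibroblast sum, mostly *Col1a1* and *Col1a2*, is ordered as *Penk* is within each time point. At P8 cKO this sum remains at 7140 to 7344 CPM, above both P6 groups, while *Penk* at P8 cKO is at 0.396 and 0.487.

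The genes whose log2 levels were most like *Penk* over the 12 libraries were sought among 15140 genes with a mean of at least 1 CPM, as a description, since the libraries share 6 groups. Pearson's r was 0.985 for *Reg3g*, a secreted antibacterial lectin, 0.971 for the homeobox gene *Pknox2*, 0.968 for the zinc finger gene *Zfp266*, 0.966 for *Irs1*, an adaptor of the insulin receptor, and 0.954 for *Nlgn2*, a postsynaptic adhesion protein. *Reg3g* had 10.7 and 14.9 CPM at P8 WT and at most 0.404 CPM in any other library, so that its r rested on those 2 libraries. The other genes varied far less than *Penk*, *Zfp266* for instance from 68.0 to 109 CPM. Of the peptide genes, *Scg2* had an r of 0.30 with *Penk*, *Vgf* -0.25, *Adm* -0.30, *Chgb* -0.62 and *Npy* -0.73.

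**Figure D3:**
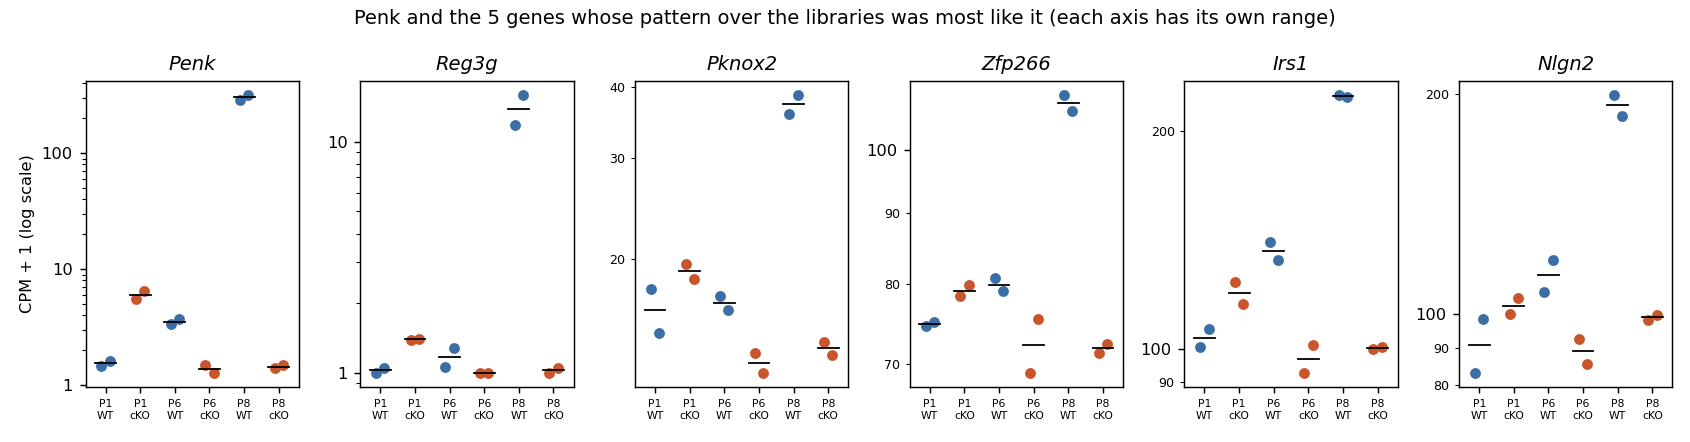
*Penk* and the 5 genes with the highest Pearson's r to it over 12 libraries, in CPM + 1 (log axes, each with its own range), by group; points are single libraries and lines are means of 2. All 6 are highest in both P8 WT libraries, and the ranges differ widely, from 289 and 318 CPM against below 6 for *Penk* to 106 and 109 against 68.0 to 79.7 for *Zfp266*.

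*Npy* is at chromosome 6, 49822710 to 49829507, and encodes a peptide that acts on the Y receptors. It had 2.41 and 2.62 CPM at P1 WT and 2.82 and 3.05 at P1 cKO, and 1.47 and 1.65 at P6 WT and 1.72 and 1.82 at P6 cKO. At P8 it had 0.992 and 0.485 CPM under WT and 4.79 and 6.06 under cKO. The genotypes did not overlap at any time point, but the means differed by more than the 1.5-fold cut-off at P8 alone. The log2 fold change was 0.22 (SE 0.29) at P1, 0.18 (SE 0.30) at P6 and 2.89 (SE 0.32) at P8, where the mean was 0.739 ± 0.359 CPM (SD, n = 2) under WT and 5.43 ± 0.902 (n = 2) under cKO, a ratio of 7.35. The WT level rested on 59 and 35 reads. Within WT the level stepped down with time, by -0.69 (SE 0.30) and then -1.09 (SE 0.31) on the log2 scale, and within cKO the steps were -0.73 (SE 0.30) and 1.61 (SE 0.30).

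*Adm* is at chromosome 7, 110627661 to 110629820, and was the most evenly expressed of the 6 genes outside P8 cKO. Its level was 25.4 and 25.0 CPM at P1 WT and 27.6 and 29.4 at P1 cKO, 23.6 and 23.4 at P6 WT and 27.4 and 26.6 at P6 cKO, and 27.2 and 25.6 at P8 WT and 54.5 and 57.8 at P8 cKO. Thus 10 libraries lay between 23.4 and 29.4 CPM, and both P8 cKO libraries lay above 54 CPM. The log2 fold change was 0.18 (SE 0.070) at P1, 0.20 (SE 0.070) at P6 and 1.09 (SE 0.070) at P8, where the ratio of the means was 2.13. The span of *Adm* overlaps the antisense gene Gm28863, which was not analysed here.

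*Vgf* is at chromosome 5, 137026392 to 137033351, and its product is a precursor of several peptides, known for its induction by nerve growth factor. It was highest at P1, with 264 and 270 CPM under WT and 111 and 111 under cKO. At P6 it had 23.9 and 28.2 CPM under WT and 10.7 and 7.78 under cKO, and at P8 9.05 and 8.51 under WT and 9.94 and 15.1 under cKO. WT was thus 2.41-fold above cKO at P1 and 2.82-fold at P6, and the libraries at P8 stood in the opposite order with a ratio of 1.43. The log2 fold change was -1.27 (SE 0.19), -1.49 (SE 0.20) and 0.51 (SE 0.20). Under WT the log2 step was -3.36 (SE 0.21) from P1 to P6 and -1.57 (SE 0.20) from P6 to P8, and under cKO it was -3.59 (SE 0.21) and then 0.44 (SE 0.19). The libraries of P6 cKO overlapped with those of both P8 groups and could not be ordered against them.

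The windows around the RefSeq starts of *Scg2* and *Chgb* hold the same 8 bases, TGACGTCA, the full cAMP response element to which CREB can bind. They are shown as a sequence that these granin genes share, and its part in their levels was not tested. Each stretch is in the gene's own direction with the motif in capitals, at chr1:79440076-79440105 on the minus strand and chr2:132781559-132781588 on the plus strand, and the first base of the motif is 68 bases before the RefSeq start of *Scg2* and 72 before that of *Chgb* (GRCm38.p6). GENCODE vM21 starts both genes farther upstream, so that the stretches lie inside the gene spans given here.
Scg2 stretch: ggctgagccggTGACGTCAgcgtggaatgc
Chgb stretch: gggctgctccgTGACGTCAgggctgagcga
The motif reads the same on both strands and stood in 588 of 32851 promoter windows (1.79%) of 250 bases before and 50 after the start. Windows were given for 4 of the 6 genes, and those of *Npy* and *Adm* did not contain these letters. No window was given for *Penk* or *Vgf*, so the motif was not sought there.

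*Scg2*, secretogranin II, is at chromosome 1, 79434669 to 79440120. It had 1.96 and 2.48 CPM at P1 WT and 3.04 and 1.77 at P1 cKO, and 4.81 and 6.18 at P6 WT and 4.83 and 6.36 at P6 cKO. At P8 it had 5.42 and 5.83 CPM under WT and 3.66 and 3.34 under cKO. The genotypes overlapped at P1 and P6 and stood apart at P8, where WT was 1.61-fold higher. The log2 fold change was 0.11 (SE 0.27), 0.026 (SE 0.26) and -0.69 (SE 0.27). From P1 to P6 the level stepped up by 1.30 (SE 0.27) under WT and 1.21 (SE 0.27) under cKO on the log2 scale.

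*Chgb*, chromogranin B, is at chromosome 2, 132781278 to 132795079. It had 1.61 and 1.24 CPM at P1 WT and 0.663 and 1.40 at P1 cKO, 1.66 and 2.19 at P6 WT and 3.29 and 3.03 at P6 cKO, and 0.622 and 0.665 at P8 WT and 1.01 and 0.868 at P8 cKO. The genotypes overlapped at P1, and cKO lay above WT at P6 and P8 by ratios of 1.64 and 1.46. The log2 fold change was -0.46 (SE 0.36), 0.72 (SE 0.35) and 0.54 (SE 0.37). The counts lay between 37 and 216 reads, the fewest at P8 WT and P1 cKO. Both genotypes were highest at P6 and stepped down from P6 to P8, by -1.58 (SE 0.37) under WT and -1.75 (SE 0.36) under cKO.

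Per length of exon, the genes could be ranked within a group (CPM divided by the exon length in kilobases, RPKM). At P1 *Vgf* was first in both genotypes, at 89.9 ± 1.42 RPKM (SD, n = 2) under WT and 37.3 ± 0.0811 under cKO. At P6 *Adm* was first, at 14.5 ± 0.0687 and 16.7 ± 0.373 RPKM. At P8 *Penk* was first under WT, at 186 ± 12.3 RPKM against 16.3 ± 0.691 for *Adm*, and last of the 6 under cKO at 0.270 ± 0.0397, where *Adm* was first at 34.7 ± 1.45 and *Npy* next at 9.59 ± 1.59. The most abundant peptide precursor of the 6 thus changed from *Vgf* to *Adm* in both genotypes, and then to *Penk* under WT alone.

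Counted by the cut-off across 17938 genes, 1 of the 6 was higher (*Penk*) and 1 lower (*Vgf*) under cKO at P1, where 4.01% of all genes tested were called higher and 0.892% lower. At P6 0 were higher and 2 lower (*Penk* and *Vgf*), beside 7.16% and 6.38% of all genes. At P8 2 were higher (*Npy* and *Adm*) and 1 lower (*Penk*), beside 11.2% and 8.37%. Since the genes were picked by such values, nothing is read from these shares. With each library left out in turn, the count stayed at 2 for P1 and for P6 and ran from 3 to 4 for P8.

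**Figure D4:**
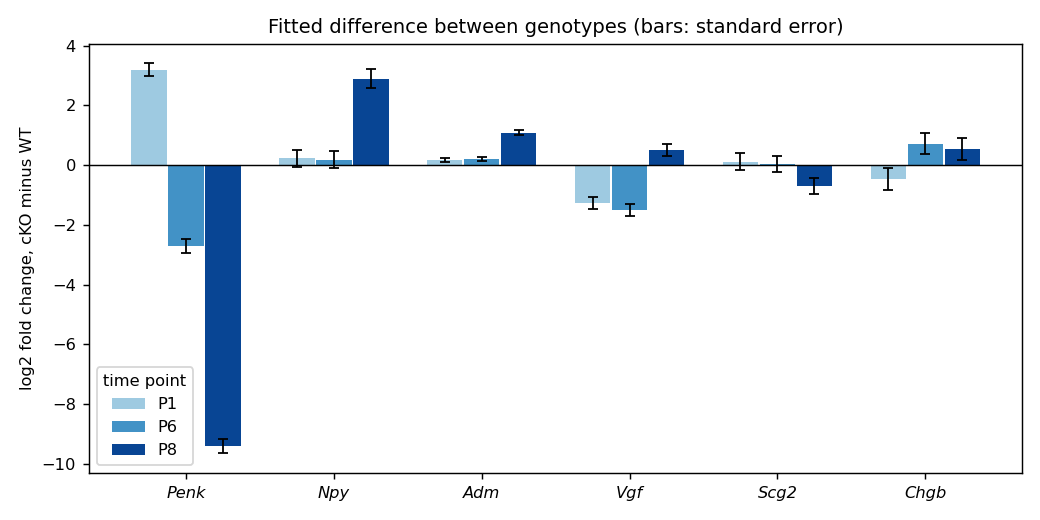
Fitted log2 fold change of the 6 genes, cKO minus WT, at P1, P6 and P8; bars start at 0 and error bars are standard errors from the fit to 12 libraries. *Penk* turns from 3.19 at P1 to -9.41 at P8, and *Npy* and *Adm* are near 0 until P8. *Vgf* goes from -1.27 at P1 to 0.51 at P8, the latter under 1.5-fold.

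Of 44 other peptide precursors listed, 18 were analysed. The counts below stand beside the shares of all genes tested that were called at the same cut-off, 4.01% higher and 0.892% lower at P1, with 7.16% and 6.38% for P6 and 11.2% and 8.37% for P8, and nothing particular to the lists is read from them. At P1 *Npvf*, the precursor of RFamide-related peptides, rose and *Nppc*, that of C-type natriuretic peptide, fell. At P6 *Edn1*, the precursor of the vasoconstrictor endothelin-1, rose, and *Nppc* and *Calca*, that of calcitonin and a related peptide, fell. At P8 *Edn1* and *Gal*, the galanin precursor, rose and *Agt*, angiotensinogen, fell. *Calca* and *Gal* were named after their values were seen. The median log2 fold change of the 18 was 0.26, 0.22 and -0.19, beside 0, 0 and 0.012 over all genes tested.

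*Edn1* had 3.61 and 5.52 CPM at P6 WT and 21.6 and 18.9 at P6 cKO, and 0.706 and 0.706 at P8 WT and 7.86 and 8.65 at P8 cKO. The genotypes did not overlap, with log2 fold change 2.15 (SE 0.20, edgeR adjusted p = 4.84e-05) at P6 and 3.54 (SE 0.22, edgeR adjusted p = 2.55e-06) at P8. At P1 it was 0.34 (SE 0.19, edgeR adjusted p = 0.352). *Npvf* had 1.83 and 1.04 CPM at P1 WT and 7.12 and 5.76 at P1 cKO (log2 fold change 2.17, SE 0.27, edgeR adjusted p = 0.00116). *Nppc* fell at P1 by 1.28 on the log2 scale (SE 0.26, edgeR adjusted p = 0.0145) and at P6 by 1.20 (SE 0.26, edgeR adjusted p = 0.00858). *Agt* had 2.37 and 2.02 CPM at P8 WT and 0.546 and 0.939 at P8 cKO (log2 fold change -1.56, SE 0.39, edgeR adjusted p = 0.0131).

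These calls differed in how far they rested on 1 library. *Gal* had no count at P8 WT and 0.218 and 0.309 CPM at P8 cKO, at least 11.6-fold higher when WT is set at 3 counts over both libraries. *Calca* had 0.757 and 0.569 CPM at P6 WT and 0.0609 and 0 at P6 cKO, and without P6 cKO replicate 2 its edgeR adjusted p was 0.0592. For *Nppc* at P1 the edgeR adjusted p was 0.0951 without WT replicate 2, 0.0838 without cKO replicate 1 and 0.0658 without cKO replicate 2. For *Agt* at P8 it was 0.0664 without WT replicate 1 and 0.0985 without cKO replicate 1. The precursors with the highest mean level, besides *Edn1*, did not pass the cut-off at any time point, since their differences were under 1.5-fold. *Nucb2*, the precursor of nesfatin, had a log2 fold change of 0.35 at P8 (SE 0.070), and *Apln*, that of apelin, had 0.56 (SE 0.11) at P6 and -0.52 (SE 0.11) at P8. Without WT replicate 2 or cKO replicate 1 of P6, *Apln* passed at P6, with log2 fold changes of 0.63 and 0.60.

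Of 20 genes listed for dense-core granules and the processing of precursors, 16 were analysed. At P1, *Cadps*, which primes granules for release, rose and *Scg3*, a granin that binds other granins, fell. At P6, 5 rose (*Pam*, *Pcsk6*, *Hid1*, *Pcsk1n* and *Ptprn2*) and 2 fell (*Pcsk5* and *Scg3*). At P8, 4 rose (*Cpd*, *Ctsl*, *Qpct* and *Ptprn2*) and 3 fell (*Pcsk5*, *Scg3* and *Cadps*). Of all genes tested, 7.16% rose and 6.38% fell at P6, and 11.2% and 8.37% at P8. *Pam*, *Pcsk6*, *Hid1*, *Pcsk1n* and *Qpct* were named after their values were seen. The median log2 fold change of the 16 was 0.089, 0.15 and 0.11.

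*Pcsk5*, a proprotein convertase, had 85.1 and 76.6 CPM at P6 WT and 4.20 and 5.45 at P6 cKO, and 248 and 248 at P8 WT and 20.8 and 21.4 at P8 cKO. The level was far higher under WT at both times, with log2 fold change -4.07 (SE 0.13, edgeR adjusted p = 6.78e-08) and -3.55 (SE 0.13, edgeR adjusted p = 7.24e-08), after 0.25 (SE 0.12, edgeR adjusted p = 0.284) at P1. *Scg3* fell at all 3 time points, from 76.2 and 71.0 CPM under WT to 48.1 and 45.1 under cKO at P1, from 49.0 and 47.8 to 16.2 and 19.9 at P6, and from 32.6 and 37.0 to 9.06 and 9.74 at P8. Its log2 fold change was -0.66 (SE 0.11, edgeR adjusted p = 0.00488), -1.42 (SE 0.11, edgeR adjusted p = 1.63e-05) and -1.89 (SE 0.11, edgeR adjusted p = 1.76e-06). *Cpe*, the carboxypeptidase that trims enkephalin and neuropeptide Y, was abundant in every group, between 872 and 2019 CPM, and its log2 fold change was 0.31, 0.16 and 0.017, within the fold cut-off each time. *Cpd*, a related carboxypeptidase, had 474 and 470 CPM at P8 WT and 874 and 875 at P8 cKO (log2 fold change 0.89, SE 0.035, edgeR adjusted p = 1.28e-07). *Ctsl*, a protease that can process proenkephalin, had 273 and 271 CPM at P8 WT and 692 and 615 at P8 cKO (log2 fold change 1.26, SE 0.081, edgeR adjusted p = 2.96e-06).

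*Ptprn2*, a granule membrane protein, had 3.16 and 2.99 CPM at P6 WT and 6.70 and 9.58 at P6 cKO, and 0.303 and 0.762 at P8 WT and 2.76 and 1.85 at P8 cKO. Its log2 fold change was 1.40 (SE 0.37, edgeR adjusted p = 0.0209) and 2.09 (SE 0.41, edgeR adjusted p = 0.00333). *Cadps* had 5.77 and 4.82 CPM at P1 WT and 11.1 and 9.97 at P1 cKO, and 12.2 and 9.93 at P8 WT and 8.32 and 6.04 at P8 cKO. Several of these calls were lost without 1 library. For *Ptprn2* at P6 the edgeR adjusted p was then 0.0839 (WT replicate 1), 0.100 (WT replicate 2) or 0.118 (cKO replicate 2). For *Cadps* it was 0.0706 (WT replicate 2) or 0.0532 (cKO replicate 1) at P1 and 0.146 (WT replicate 1) or 0.154 (cKO replicate 2) at P8. For *Pcsk1n* at P6 it was 0.107 (WT replicate 1) or 0.116 (cKO replicate 1).

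Of 35 receptors and peptidases listed, 21 passed the filter, of which 0 passed the test at P1 (edgeR, 1 at an unadjusted p below 0.05 in each direction with the fold cut-off, and 1 in DESeq2). At P6, 2 rose (*Mme* and *Ece2*) and 5 fell (*Enpep*, *Anpep*, *Npy1r*, *Calcrl* and *Ramp2*), and at P8, 2 rose (*Anpep* and *Calcrl*) and 6 fell (*Enpep*, *Npy1r*, *Ntsr2*, *Ace*, *Sstr4* and *Ackr3*). Of all genes tested, 7.16% rose and 6.38% fell at P6, and 11.2% and 8.37% at P8. All of these receptors and peptidases other than *Mme*, *Enpep* and *Anpep* were named after their values were seen. The span of *Ece2* is shared with Gm49333, so its reads are uncertain. Without 1 library of P8, the edgeR adjusted p of *Ntsr2* at P8 was 0.0603 (WT replicate 1), 0.0558 (cKO replicate 1) or 0.0789 (cKO replicate 2), and that of *Sstr4* was 0.0862 (WT replicate 1), 0.185 (WT replicate 2), 0.237 (cKO replicate 1) or 0.0607 (cKO replicate 2). The call of *Sstr4* was also lost without either P1 WT library or either P6 cKO library, with edgeR adjusted p from 0.0554 to 0.0571. The median log2 fold change of the 21 was -0.0025, -0.11 and 0.057.

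Receptor genes for the peptides of *Npy* and *Adm* are set beside their ligands' genes. *Npy1r*, the Y1 receptor of neuropeptide Y, had 44.1 and 45.3 CPM at P8 WT and 12.9 and 11.9 at P8 cKO (log2 fold change -1.85, SE 0.21, edgeR adjusted p = 0.000104), where *Npy* was higher under cKO. At P6 it also fell (log2 fold change -1.23, SE 0.21, edgeR adjusted p = 0.00218). *Calcrl*, the receptor chain for adrenomedullin, had 20.1 and 19.6 CPM at P6 WT and 6.11 and 5.79 at P6 cKO, and 26.0 and 28.8 at P8 WT and 43.3 and 44.3 at P8 cKO. Its log2 fold change was -1.74 (SE 0.089, edgeR adjusted p = 1.15e-06) at P6 and 0.67 (SE 0.085, edgeR adjusted p = 0.000237) at P8, where *Adm* was also higher under cKO. *Ramp2*, the partner that makes *Calcrl* an adrenomedullin receptor, had 8.09 and 8.19 CPM at P6 WT and 0.259 and 0.140 at P6 cKO (log2 fold change -5.34, SE 0.93, edgeR adjusted p = 0.00244). At P8 it had 9.70 and 11.8 CPM under WT and 3.29 and 4.27 under cKO, and its edgeR adjusted p was 0.142. The spread of *Ramp2* was wide at P1 WT, at 0.453 and 4.18 CPM, and without WT replicate 1 of P1 it passed the cut-off at P1 (edgeR adjusted p = 0.00905) and at P8 (0.00616), while without WT replicate 2 of P1 it passed at P8 (0.00656).

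Peptidases on the cell surface also differed. *Mme*, neprilysin, which breaks down enkephalin, had 58.1 and 53.4 CPM at P6 WT and 124 and 131 at P6 cKO (log2 fold change 1.19, SE 0.094, edgeR adjusted p = 1.94e-05), after -0.0025 (SE 0.093) at P1. *Anpep*, aminopeptidase N, which also cleaves enkephalin, had 62.6 and 65.5 CPM at P6 WT and 28.8 and 28.0 at P6 cKO, and 50.4 and 56.4 at P8 WT and 83.4 and 90.2 at P8 cKO. The groups did not overlap and stood in opposite orders, with log2 fold change -1.17 (SE 0.070, edgeR adjusted p = 2.93e-06) and 0.70 (SE 0.069, edgeR adjusted p = 4.80e-05). *Enpep*, aminopeptidase A, had 29.6 and 30.8 CPM at P8 WT and 0.627 and 1.09 at P8 cKO (log2 fold change -5.12, SE 0.50, edgeR adjusted p = 9.15e-05). At P6 it had 1.74 and 3.68 CPM under WT and no count under cKO, at least 117-fold lower when cKO is set at 3 counts over both libraries. The most abundant genes of the list, *Lnpep*, *Sort1* and *Ece1*, stayed under 1.5-fold at every time point, with log2 fold changes between -0.24 (*Ece1*) and 0.52 (*Sort1*), both at P8.

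**Figure D5:**
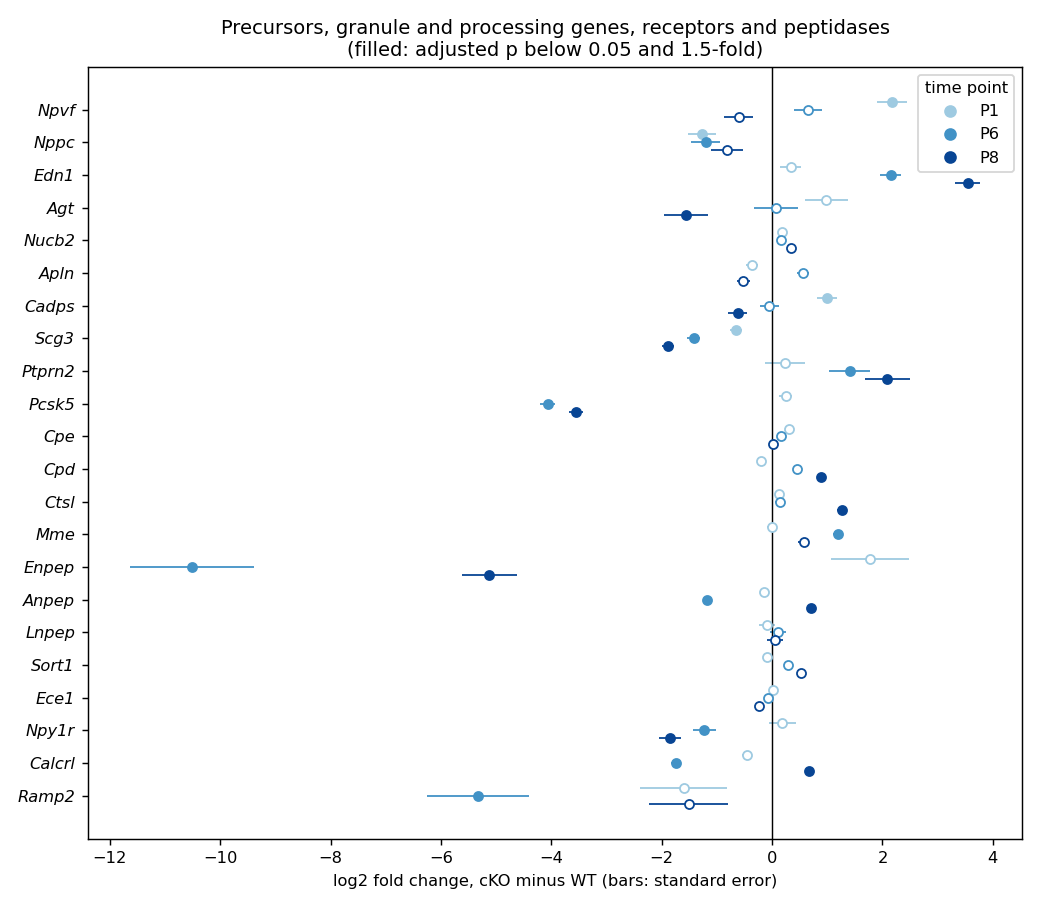
Fitted log2 fold change, cKO minus WT, of the named precursors, granule and processing genes, receptors and peptidases at P1, P6 and P8; error bars are standard errors and filled points passed the cut-off. Among genes with reads under both genotypes at P8, *Edn1* (3.54), *Pcsk5* (-3.55) and *Enpep* (-5.12) lie farthest from 0 there. *Gal* had no read at P8 WT, and its fitted log2 fold change at P8 ran from 6.54 to 7.38 over the settings tried. The fitted *Enpep* point at P6 (-10.51) depends on the prior count because no read was counted under cKO.

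Whether the difference between genotypes itself changed with age was tested by interaction terms in the 55 genes of the 3 lists, at an edgeR adjusted p below 0.05. It differed between P6 and P1 for 17 of the 55 (8 more positive and 9 more negative at P6), beside 2746 of all 17938 genes tested (15.3%). Between P8 and P6 it differed for 21 of the 55 (11 and 10), beside 3849 (21.5%). Between P8 and P1 it differed for 24 of the 55 (12 and 12), beside 4606 (25.7%). Each time the share of the 55 was above that of all genes tested. The lists were chosen with earlier results of these data known, so nothing particular to them is read from these shares. The contrasts at P6 enter the first and the second count alike, so the counts are not independent.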

How the data were processed

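Reads of 12 libraries had been mapped with HISAT2 to mm10 (GRCm38), per the labels, and the authors deposited whole-number counts of reads per gene, not normalized, for 18903 genes. No source used here names the counting program, its annotation or its strand setting. Genes were filtered by filterByExpr (17938 remained), scaled by TMM and fitted with edgeR 4.0.16 (quasi-likelihood, R 4.3.3) to 6 group means. P-values were adjusted by Benjamini-Hochberg over all genes, and a call needed a fold change of at least 1.5 and an adjusted p below 0.05. For interaction terms the adjusted p alone decided. Pathway genes were named where they had the largest rise or fall at a time point or the highest mean level, with a mean of at least 1 CPM for the changes. The members and lists were chosen with earlier results of these data known. Likeness used log2 CPM with a prior count of 2. Replicates differed by more than counting noise (chi-square per degree of freedom 30.5 to 47.1). P-values measure the spread between the libraries, which may be technical. Promoter sequences are from RefSeq (GRCm38.p6), coordinates and the transcript from GENCODE vM21. Alternatives were DESeq2 1.42.0 (tool or size factors), no filter, a replicate block, another fold or an unadjusted p, single time points and each library left out. The fits were tested on simulated data.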

Additional observations from a re-analysis of the deposited data

Results flagged for a closer look

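Each value here is the difference of 2 genotype differences, the cKO minus WT log2 fold change at the later time point minus that at the earlier one. For *Penk* and *Vgf* the libraries labelled cKO lay on opposite sides of those labelled WT at the 2 time points, and the difference was not tested. For *Penk* it was -5.90 between P6 and P1 and -12.60 between P8 and P1. For *Vgf* it was 2.01 between P8 and P6 and 1.78 between P8 and P1. The *Vgf* difference at P8 itself was under 1.5-fold (log2 fold change 0.51, SE 0.20) and ran from 0.18 to 0.78 over the settings tried. Its libraries had 9.94 and 15.1 CPM under cKO and 9.05 and 8.51 under WT.

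In the named pathway genes an interaction term had an edgeR adjusted p below 0.05. Among precursors, the term of *Edn1* was 1.81 (P6 minus P1), 1.40 (P8 minus P6) and 3.20 (P8 minus P1). *Npvf* went the other way, with -1.53, -1.26 and -2.78 in the same order. *Agt* had -2.54 (P8 minus P1). *Apln* had 0.92 (P6 minus P1) and -1.08 (P8 minus P6).

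Among granule and processing genes, *Pcsk5* had -4.31 (P6 minus P1) and -3.80 (P8 minus P1). *Scg3* had -0.77 and -1.23, and *Cadps* -1.04 and -1.62, for the same spans. *Ptprn2* had 1.85 (P8 minus P1). *Cpd* had 0.67 (P6 minus P1), 0.43 (P8 minus P6) and 1.10 (P8 minus P1). *Ctsl* had 1.12 (P8 minus P6) and 1.14 (P8 minus P1). *Cpe* had -0.15 and -0.29 for those spans, within the fold cut-off at each time point.

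Among receptors and peptidases, *Calcrl* had -1.28 (P6 minus P1), 2.41 (P8 minus P6) and 1.13 (P8 minus P1). *Ramp2* had 3.83 (P8 minus P6). *Npy1r* had -1.42 (P6 minus P1) and -2.04 (P8 minus P1). *Anpep* had -1.03, 1.87 and 0.85 in the order of the *Calcrl* terms, and *Mme* 1.19, -0.62 and 0.57. *Sort1* had 0.39, 0.23 and 0.62, also in that order. *Ece1* had -0.26 (P8 minus P1). The terms of *Enpep*, -12.29 (P6 minus P1) and -6.90 (P8 minus P1), are fitted values, and the first depends on the prior count because no read was counted at P6 cKO.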

How the results depend on the processing

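Among the counts of called genes, 14 of the recomputed values moved by over 1.5 times or to or from 0. By an unadjusted p, 6 other precursors were called at P1, 5 at P6 and 6 at P8, and 2 receptors or peptidases at P1. Of the 6 precursors at P8, 2 rose and 4 fell, beside 2 and 1 in the main fit. At a fold change of at least 2, 0 granule and processing genes were called at P1 and 4 at P6, and 4 receptors or peptidases at P8. DESeq2 on all libraries called 1 receptor or peptidase at P1. With each library left out in turn, counts ran from 1 to 2, 2 to 4 and 2 to 4 for other precursors at P1, P6 and P8, from 1 to 2, 5 to 7 and 6 to 7 for granule and processing genes, and from 0 to 1, 7 to 8 and 6 to 8 for receptors and peptidases. Interaction counts ran from 14 to 17 (P6 and P1), 15 to 20 (P8 and P6) and 21 to 25 (P8 and P1). Of 39 calls of single pathway genes, 9 were lost in some alternative and 30 in none, 14 recomputed values gained a call, and no called fold change was reversed. Differences that were not called could change sign, with *Agt* at P6 running from a log2 fold change of -0.33 to 0.38. The cause was not tested, beyond the fewer libraries where 1 was left out and the other cut-off where that was the setting.

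Libraries with the same replicate number did not deviate together (correlations -0.014 at P1, -0.0013 at P6 and -0.050 at P8), so the numbers were not taken to pair them. With the replicate number as a block, 2, 3 and 3 other precursors, 2, 7 and 7 granule and processing genes and 0, 7 and 7 receptors or peptidases were called, and *Sstr4* at P8 lost its call (edgeR adjusted p = 0.0631). The interaction counts were then 16, 20 and 22. *Penk* at P8 cKO rested on 29 and 41 reads and *Npy* at P8 WT on 59 and 35, which limits the precision of their ratios.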
